A study of Sus scrofa with 10 samples.

Results

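CEBPD, PNPLA2, ADIPOR2 and PLIN2 are 4 genes tied to fat cell formation and to the storage or use of lipid, and their expression was described in sorted porcine fetal fibroblasts. They were taken by gene symbol from the annotation of the array, as 4 of the 6765 genes it names. That gave 8 probe sets, 3 for CEBPD, 2 each for PNPLA2 and ADIPOR2 and 1 for PLIN2, of 24123 on the array. The genes were chosen because their brightest probe sets were known to differ between the fractions compared here, so those differences are a description and carry no test. Fibroblasts were prepared from fetal tissue without the head, at fetal day 24, of the cross Danish Landrace/Yorkshire x Duroc, grown in serum-containing medium on gelatin and separated on magnetic beads with an antibody to SSEA-1, a carbohydrate of the cell surface. The SSEA1+ fraction was compared with the SSEA1- fraction, with 5 arrays of each and replicate numbers 1 to 5 in both. By the series text each replicate gave both fractions. The main fit left this pairing out, and results with the replicate number as a block are named as such. The series title speaks of a cell line, and the series text of 5 biological replicates, without saying whether these came from separate animals or cultures. If they came from 1 culture, the errors given below measure the spread between sorts only. In a sorted bulk sample, fewer cells that express a gene and less RNA per cell cannot be told apart.

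The CCAAT/enhancer-binding proteins (C/EBPs) are transcription factors. In mouse preadipocytes CEBPB and CEBPD are induced early after a hormonal stimulus and precede PPARG and CEBPA, the factors of the mature fat cell. Neutral lipid is kept in droplets coated by perilipins, of which PLIN2 is the form found in most cells outside fat tissue, and PNPLA2, also called adipose triglyceride lipase, takes the first fatty acid from a stored triglyceride. ADIPOR2 is a membrane receptor for the fat cell hormone adiponectin and is linked to PPARA activity and fatty acid oxidation in mouse liver. Fibroblasts also hold small lipid droplets, so these genes are not markers of fat cells alone.

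Signals are log2 values, so a difference of 1 is a change of 2-fold. Background was set at 0.352, the 95th percentile of 23 control probe sets whose targets are absent from pig RNA, and between 69.3% and 72.5% of probe sets lay above it on each array. Array medians ran from 1.15 to 1.19, and their number, 5 per fraction, limits the precision. The spiked poly-A controls stood 0.82 higher relative to the hybridisation controls in the SSEA1+ fraction, and the 28S ribosomal RNA probe set read 8.64 to 9.77 on SSEA1+ arrays and 6.84 to 7.72 on SSEA1- arrays. The 3′ minus 5′ difference of actin, a sign of RNA integrity, ran from 1.06 to 1.24 on SSEA1+ arrays and from 1.12 to 1.35 on SSEA1- arrays. The part of the ribosomal RNA signal in the differences below was not tested, and differences with the poly-A level as a covariate are given.

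Markers of fibroblasts were bright in both fractions, as the label has it. All 12 measured ones had a mean above background, with vimentin (VIM) at 11.25 in the SSEA1+ and 11.24 in the SSEA1- fraction and fibronectin (FN1) at 10.52 and 10.65, though the collagen COL3A1 was dim at 0.75 and 0.68. The collagen chain COL1A2 rose by 1.19 in the SSEA1+ fraction and none fell, beside 3.21% of all genes that rose and 4.18% that fell. Of the 12, however, 4 read higher and 8 read lower, and the median of the list was -0.09. With the replicate number as a block, THY1 also rose, by 0.34, and POSTN and FAP fell, by 0.59 and 0.50, and among 5 preadipocyte markers ICAM1 rose by 0.26 and DPP4 fell by 0.49. Those markers moved with the fractions as the 4 genes did, and their part in the differences was not tested. Markers of fat cells were dim. The hormone ADIPOQ averaged 0.14 in the SSEA1+ fraction and 0.13 in the SSEA1- fraction and passed background on 1 of 10 arrays, LIPE averaged 0.39 in the SSEA1+ and 0.45 in the SSEA1- fraction, and FABP4 0.98 in the SSEA1+ and 0.71 in the SSEA1- fraction. The summed log2 signal of the 9 measured fat cell markers ran from 6.46 to 7.80 on SSEA1+ arrays and from 5.82 to 7.30 on SSEA1- arrays, and none of them passed in limma, with 1 at an unadjusted p under 0.05, a level that 23.8% of all genes reached.

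Among the other cell types, 1 of 7 leukocyte markers had a mean above background, and PTPRC and CD163 were below it on every array. For endothelium 3 of 7 and for liver 3 of 8 had such a mean, with CDH5, TEK, ALB and FGB below background on all arrays. Epithelial markers were measured for 7 genes, and KRT8 was the brightest at 5.42 in the SSEA1+ fraction and 5.47 in the SSEA1- fraction. Their summed signal ran from 10.13 to 14.14 on SSEA1+ arrays and from 9.45 to 14.04 on SSEA1- arrays. Of the 7, 3 read lower in the SSEA1+ fraction, and the median difference was 0.18. The other 4, EPCAM, CDH1, KRT19 and CLDN4, read higher by 0.18 to 0.40, each at an unadjusted p under 0.05 in limma. Of all genes 23.8% had such a p. What part the epithelial markers had in the differences of CEBPD, PNPLA2, ADIPOR2 and PLIN2 was not tested. In the other 3 lists 0 leukocyte, 0 endothelial and 1 liver marker had such a p. None of these leukocyte, endothelial, liver and epithelial markers passed after adjustment, except KRT19 with the replicate block, which was higher by 0.40 (adjusted p = 0.0272 in limma, and 0.166 without the block). Muscle and red cell lists, of 6 and 5 measured genes, had no call in either fit, though DES averaged 7.20 and 6.92 and the globin gene HBB 4.38 and 4.54.

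CEBPD read higher in the SSEA1+ fraction on its brightest probe set. This probe set read 7.09, 7.17, 7.06, 7.14 and 7.25 on SSEA1+ replicates 1 to 5, against 6.80, 6.96, 6.72, 6.65 and 6.85 on SSEA1- replicates 1 to 5. Every SSEA1+ array lay above every SSEA1- array. The means were 7.14 ± 0.07 and 6.79 ± 0.12 (SD, n = 5 each), a difference of 0.35 ± 0.07 (SE), or 1.27-fold, and the differences within replicate numbers ran from 0.22 to 0.48.

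The other CEBPD probe sets differed less. The middle one in brightness, also well above background, read 5.62, 5.58, 5.33, 5.94 and 5.87 on SSEA1+ replicates 1 to 5 and 5.72, 6.0, 5.35, 5.48 and 5.74 on SSEA1- replicates 1 to 5. Its fractions overlapped almost entirely, its difference was 0.01 ± 0.13 (SE), and it was higher in the SSEA1+ fraction in 2 of 5 replicate pairs. Yet within fractions both bright CEBPD probe sets moved together, with a Pearson correlation of 0.811 over the 10 deviations from the fraction means. The dimmest probe set ran from 1.37 to 1.89 in the SSEA1+ fraction and from 1.30 to 1.58 in the SSEA1- fraction, a difference of 0.21 ± 0.10 (SE) with 4 of 5 pairs higher. Its fractions overlapped, and its deviations correlated with those of the brightest probe set at -0.164 and of the middle one at -0.458. The brightest CEBPD probe set thus read higher in the SSEA1+ fraction and the middle one did not. The dimmest read higher on average but did not follow the other CEBPD probe sets within fractions. Which part of the transcript each of them reads is not given in the sources used here.

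PNPLA2, the lipase, also read higher in the SSEA1+ fraction. Its brighter probe set read 5.50, 5.61, 5.38, 5.42 and 5.47 on SSEA1+ replicates 1 to 5, against 5.17, 5.35, 5.06, 4.83 and 4.98 on SSEA1- replicates 1 to 5. The fractions did not overlap, and SSEA1- replicate 2, at 5.35, lay just below the lowest SSEA1+ array, replicate 3 at 5.38. The means were 5.47 ± 0.09 and 5.08 ± 0.20 (SD, n = 5 each), a difference of 0.40 ± 0.09 (SE), or 1.32-fold, with pair differences of 0.26 to 0.59. The second probe set lay near background, at 0.40 to 0.61 in the SSEA1+ fraction and 0.19 to 0.56 in the SSEA1- fraction. It was higher in the SSEA1+ fraction in 5 of 5 pairs, by 0.12 ± 0.08 (SE), but its fractions overlapped, 1 of its 10 arrays was below background, and without that array, SSEA1- replicate 1, the difference was 0.07.

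ADIPOR2, the adiponectin receptor, read lower in the SSEA1+ fraction on its brighter probe set. This probe set read 2.73, 2.97, 2.79, 2.68 and 2.69 on SSEA1+ replicates 1 to 5 and 3.17, 3.16, 3.19, 2.93 and 3.15 on SSEA1- replicates 1 to 5. The fractions overlapped through a single pair of arrays, SSEA1+ replicate 2 lying above SSEA1- replicate 4, and within replicate numbers the SSEA1+ array was lower in 5 of 5. The means were 2.77 ± 0.12 and 3.12 ± 0.11 (SD, n = 5 each), a difference of -0.35 ± 0.08 (SE), or 0.786-fold. The dimmer probe set ran from 0.99 to 1.32 in the SSEA1+ fraction and from 1.06 to 1.25 in the SSEA1- fraction, with a difference of 0.01 ± 0.08 (SE). Its 10 arrays held only 8 distinct values, and its fractions overlapped.

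PLIN2, the droplet coat protein, had the largest difference of the 4 genes, and it was lower in the SSEA1+ fraction. Its single probe set read 4.13, 3.46, 3.96, 3.92 and 3.79 on SSEA1+ replicates 1 to 5, against 4.54, 3.92, 4.40, 4.65 and 4.56 on SSEA1- replicates 1 to 5. Replicate 2 was the lowest in both fractions, and its SSEA1- array lay below SSEA1+ replicates 1, 3 and 4, so the fractions overlapped. The means were 3.85 ± 0.25 and 4.41 ± 0.29 (SD, n = 5 each), a difference of -0.56 ± 0.14 (SE), or 0.677-fold. Within replicate numbers the SSEA1+ array was lower in 5 of 5, by differences of -0.42 to -0.78, and with the replicate block the standard error fell to 0.08, against 0.14 without it.

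**Figure D1:**
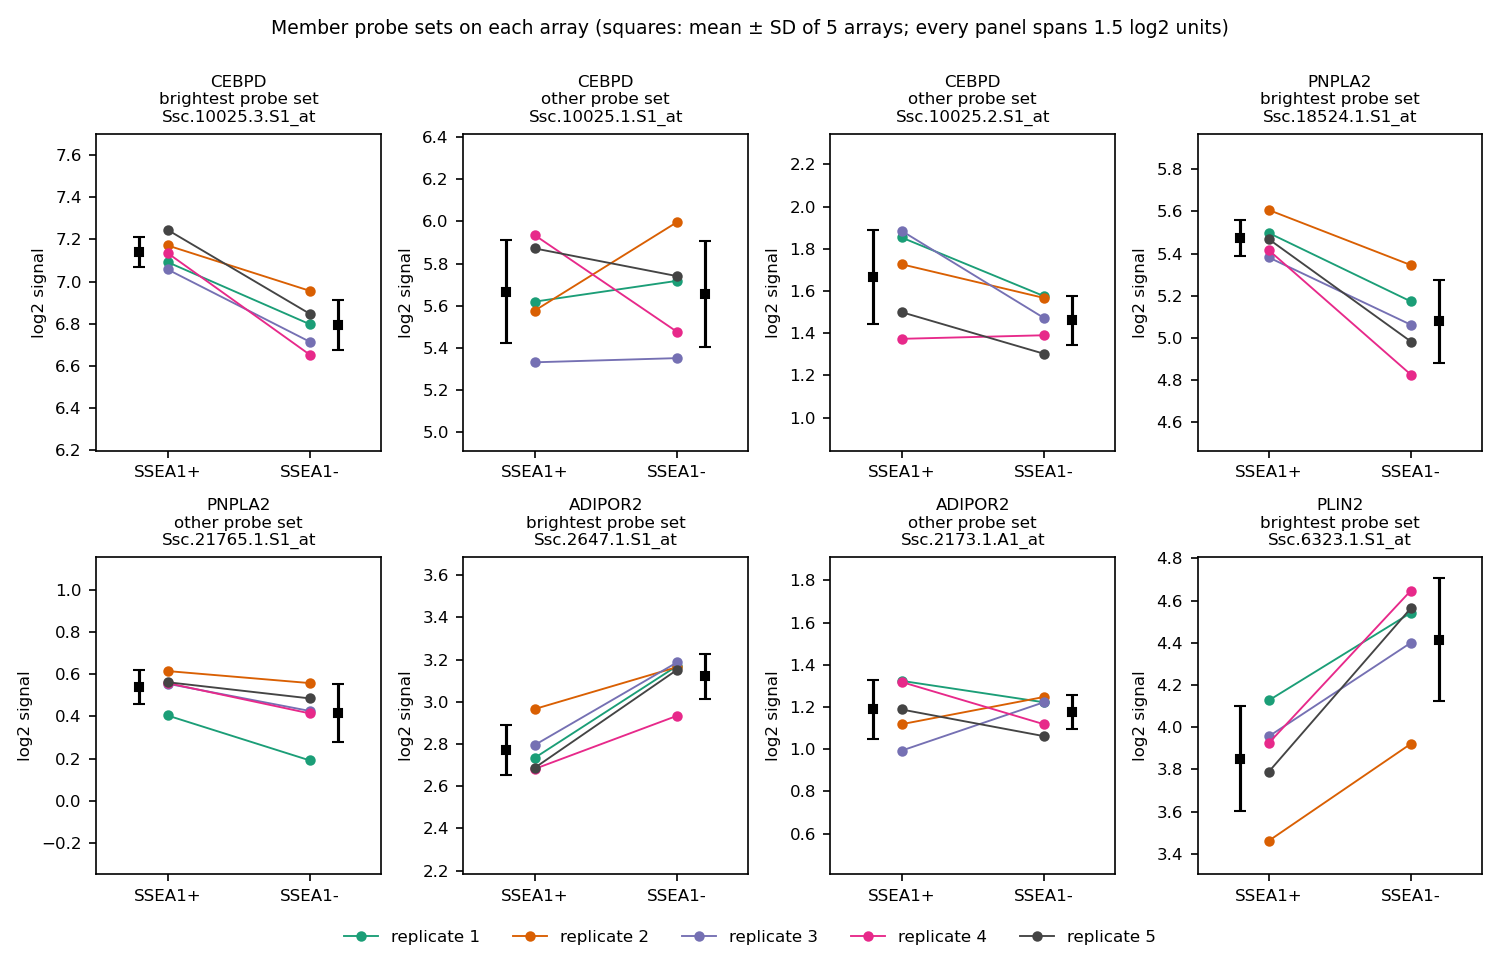
Log2 signal of the 8 probe sets of CEBPD, PNPLA2, ADIPOR2 and PLIN2 on each array, with lines joining the SSEA1+ and SSEA1- arrays of 1 replicate number, and squares with bars for the mean ± SD of 5 arrays. The lines of the brightest CEBPD and PNPLA2 probe sets all run higher on the SSEA1+ side, those of the brighter ADIPOR2 and the PLIN2 probe set all run lower there, and the lines of the middle CEBPD probe set cross.

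Set beside the whole array, these differences were moderate in size. Probe sets that are not controls had a median absolute difference of 0.09, and 2.06% of them differed by more than PLIN2, 5.74% by more than PNPLA2, 7.80% by more than ADIPOR2 and 7.87% by more than CEBPD, each on its brightest probe set. Of the 8 probe sets, 2 were higher and 2 were lower at an adjusted p under 0.05 in limma, a threshold passed by 6.20% of all probe sets, 2.72% higher and 3.48% lower. With the replicate block 11.7% of all probe sets passed, 5.17% higher and 6.57% lower. Fractions did not overlap for 2 of the 8, both higher, and for 6.30% of the probe sets that are not controls, 2.98% higher and 3.32% lower. Nothing is read from these counts, since the genes were picked on this comparison.

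The directions of the 4 brightest probe sets held in every model tried, and the sizes moved with the poly-A level. These probe sets were picked for their differences, and each went the same way in 5 of 5 pairs. Leaving out a pair could therefore not turn them, and nothing is read from their held directions. In fits without 1 array or without both arrays of a replicate number, the difference ran from 0.31 to 0.39 for CEBPD, from 0.33 to 0.46 for PNPLA2, from -0.40 to -0.32 for ADIPOR2 and from -0.69 to -0.47 for PLIN2. With the poly-A level as a covariate CEBPD read 0.56 ± 0.13, PNPLA2 0.56 ± 0.17, ADIPOR2 -0.32 ± 0.15 and PLIN2 -0.91 ± 0.25 (SE). The middle CEBPD probe set read 0.55 ± 0.19 (SE) in that fit, against 0.01 without the covariate. The dimmest one turned to -0.10 ± 0.17 (SE). Across the leave-outs the middle CEBPD probe set ran from -0.10 to 0.12 and the dimmer ADIPOR2 one from -0.03 to 0.07. With the replicate block beside the covariate the values were 0.47 ± 0.22 for CEBPD, 0.63 ± 0.23 for PNPLA2, -0.26 ± 0.23 for ADIPOR2 and -0.77 ± 0.25 for PLIN2 (SE). No SSEA1+ array had a poly-A level as low as any SSEA1- array, so these values are extrapolated by the model.

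**Figure D2:**
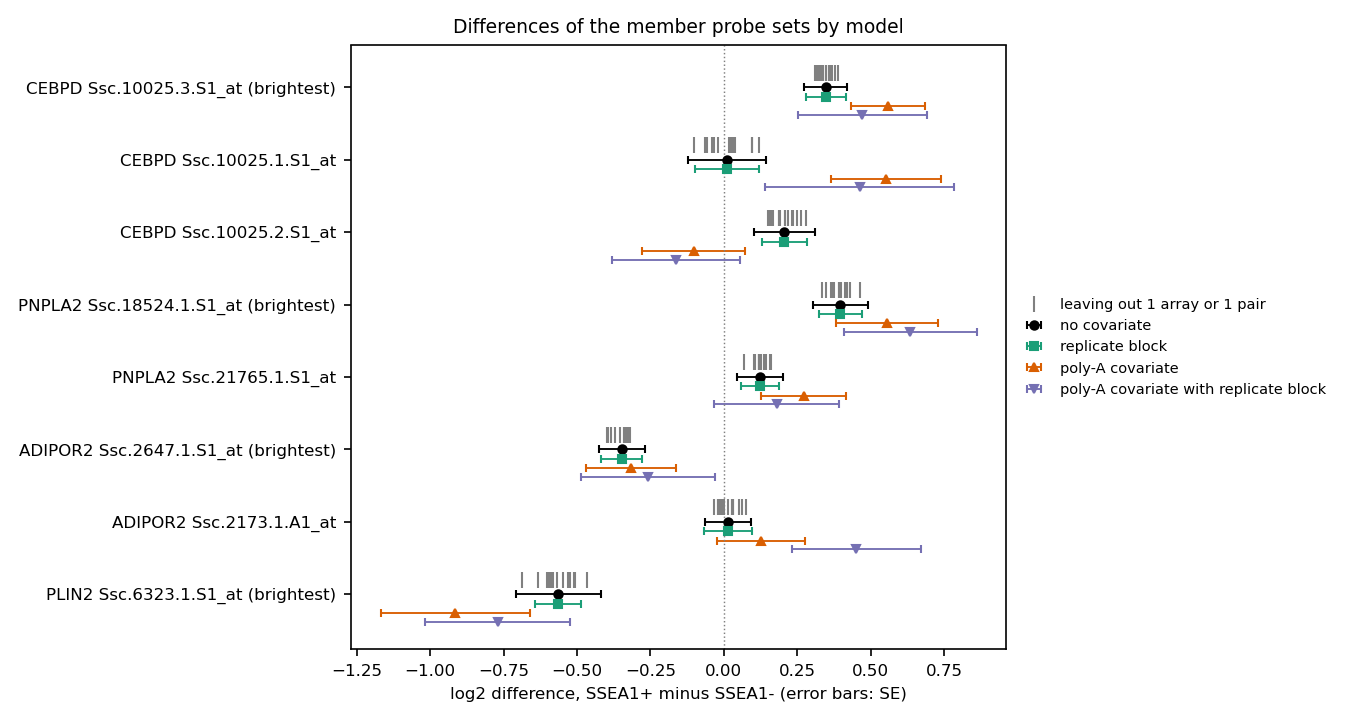
Log2 difference, SSEA1+ minus SSEA1-, of the 8 probe sets by model, with SE bars, and grey ticks for fits that leave out 1 array or 1 replicate pair. The brightest probe sets of CEBPD and PNPLA2 stay above 0 and those of ADIPOR2 and PLIN2 below it, while the middle CEBPD probe set moves to 0.55 with the poly-A covariate.

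Within fractions the lipase and the droplet coat gene ran opposite to each other. Over the 10 deviations from the fraction means, which leave the fraction difference out, PLIN2 correlated with PNPLA2 at -0.767, with CEBPD at -0.682 and with ADIPOR2 at -0.581. CEBPD and PNPLA2 correlated at 0.724, PNPLA2 and ADIPOR2 at 0.651, and CEBPD and ADIPOR2 at 0.315. Replicate 2 weighed most: in both fractions it held the lowest PLIN2 and the highest PNPLA2 signal. Without its arrays, over 8 deviations, PLIN2 and PNPLA2 correlated at -0.268, PLIN2 and CEBPD at -0.469, and CEBPD and PNPLA2 at 0.477. ADIPOR2 kept 0.688 with PNPLA2. These correlations describe arrays that were normalized together and, within a number, share a replicate.

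The poly-A level and the 28S ribosomal RNA signal varied within fractions too. Poly-A deviations correlated with those of the brightest CEBPD probe set at -0.758, of the bright PNPLA2 probe set at -0.367, of the brighter ADIPOR2 probe set at -0.0992 and of PLIN2 at 0.452, again over 10 arrays. The middle CEBPD probe set stood at -0.766 and the dimmest, with the opposite sign, at 0.605. For the 28S signal the correlations were -0.323 for the brightest CEBPD, -0.512 for the bright PNPLA2, -0.370 for the brighter ADIPOR2 and 0.0705 for the PLIN2 probe set.

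**Figure D3:**
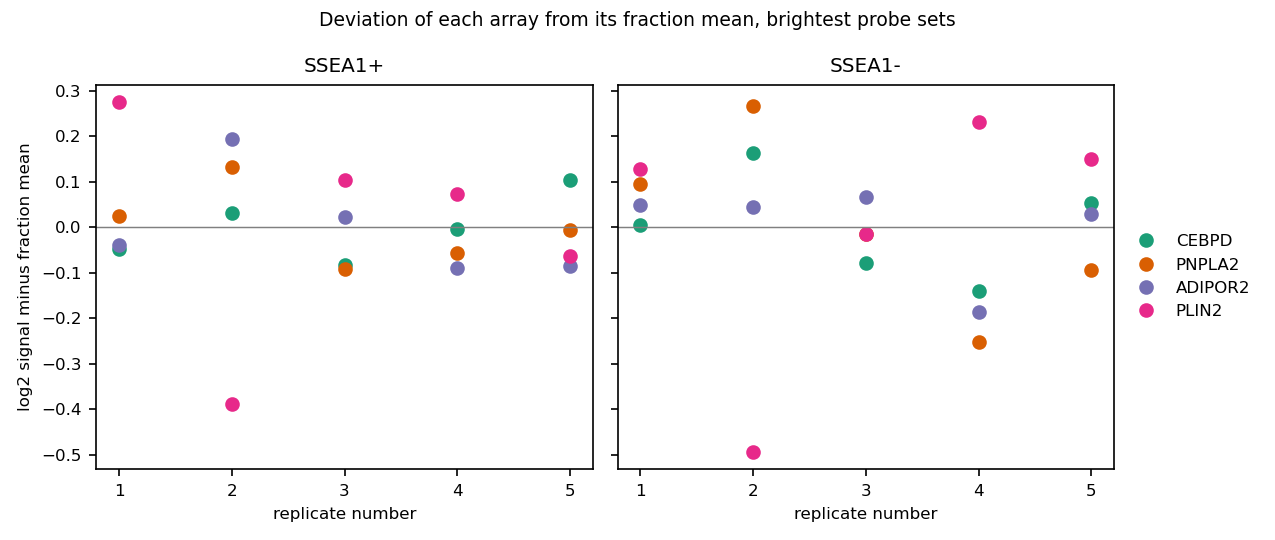
Deviation of the log2 signal of each array from its fraction mean for the brightest probe set of the 4 genes, by replicate number, with SSEA1+ arrays on the left and SSEA1- arrays on the right. PLIN2 lies far below its mean on both arrays of replicate 2, where PNPLA2 lies above its own.

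The genes most like each of the 4 within fractions were found by the same correlation among 5689 genes above background. For CEBPD they were SEPT4 at 0.931, TMEM2 at 0.917 and KLF4 at 0.900. For PNPLA2 they were WDR1 at 0.972, KCTD10 at 0.969 and FBN1 at 0.968, and for ADIPOR2 RBM12B at 0.930, AKAP2 at 0.904 and SEC31A at 0.893. PLIN2 ran closest to HSDL2 at 0.976, HINT1 at 0.975 and DNM1L at 0.968. Their differences between the fractions lay between -0.11 and 0.07, among them KLF4 at -0.03, WDR1 at -0.04 and HINT1 at -0.01, except for DNM1L at -0.25, the way PLIN2 went, and TMEM2 at -0.32, opposite to CEBPD. With 10 arrays and so many genes searched, correlations of this size are a ranking and nothing more.

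Genes around these 4 were read from 13 pathway lists, in which 185 distinct genes were measured, each by its brightest probe set. Of the 185, 9 rose and 4 fell in the SSEA1+ fraction, 7.03% in all, beside 7.39% of all 6765 genes, 3.21% higher and 4.18% lower. The median difference was 0.03, against -0.01 over all genes. With the replicate number as a block 18 rose and 10 fell, 15.1% beside 14.3% of all genes, 5.65% higher and 8.62% lower. At an unadjusted p under 0.05 stood 24.3% of the list genes and 23.8% of all genes, or 32.4% and 29.7% with the block. The balance of directions moved with the scaling: 13 list genes rose and 2 fell after repeated quantile normalization as after cyclic loess, where of all genes 273 rose and 219 or 224 fell, against 217 that rose and 283 that fell in the values as deposited. In these fits the lists as a whole thus changed about as often as all genes on the array. With the poly-A level as a covariate, 21.1% of list genes and 14.6% of all genes had an unadjusted p under 0.05 in limma. The lists were chosen with earlier results of these data known, so the shares are a description.

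Relatives of CEBPD showed no call. In limma 0 of 4 measured C/EBP family genes passed in either fit, with 0 at an unadjusted p under 0.05 without the block and 1, DDIT3, with it. CEBPB, the partner of CEBPD in the early phase of fat cell formation, read 6.83 ± 0.14 in the SSEA1+ fraction and 6.79 ± 0.28 in the SSEA1- fraction (SD, n = 5 each). CEBPG, a family member without an activation domain, differed by -0.05 and the dim CEBPA by -0.07. DDIT3, a stress-induced member that blocks other C/EBPs, read -0.20 (adjusted p = 0.346 in limma) and was lower in 5 of 5 pairs.

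Adipogenic transcription factors and cofactors gave no call among 20 measured genes in either fit. Without the block 1 of the 20 had an unadjusted p under 0.05 in limma, beside 23.8% of all genes. That gene was NR1H3, the sterol-sensing liver X receptor alpha, at 0.23 ± 0.07 (SE, adjusted p = 0.0833 in limma). PPARG, the central factor of fat cells, was dim, at 1.36 ± 0.22 in the SSEA1+ fraction and 1.29 ± 0.34 in the SSEA1- fraction (SD, n = 5 each).

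Of 13 inhibitors of adipogenesis 2 rose and none fell, beside 3.21% of all genes that rose and 4.18% that fell. NCOR1, a corepressor of nuclear receptors, rose by 0.47 ± 0.11 (SE, adjusted p = 0.0246 in limma) with 0.42 and a call on another probe set and -0.07 on its dimmest. GATA3, a factor that holds back the differentiation of mouse preadipocytes, rose by 0.61 ± 0.16 (SE, adjusted p = 0.0411 in limma), and its other probe sets read 0.40 with a call, 0.40 without one and, near background, 0.09. Averaged over its probe sets NCOR1 read 0.28 and did not pass (adjusted p = 0.062 in limma). The median of the list was 0.02, and the block added TCF7L2 at 0.44, named after its value was seen.

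Among 12 lipid droplet genes other than PLIN2, 1 rose and none fell, and the median was 0.09. HILPDA, a hypoxia-induced droplet protein that inhibits PNPLA2, rose by 0.28 ± 0.07 (SE, adjusted p = 0.0279 in limma), with SSEA1+ arrays at 4.61 to 4.70 and SSEA1- arrays at 4.26 to 4.53. Its other probe set read 0.24 without a call. PLIN3, the perilipin closest to PLIN2 in its broad expression, read 3.46 ± 0.10 in the SSEA1+ fraction and 3.36 ± 0.17 in the SSEA1- fraction (SD, n = 5 each), a difference of 0.10 ± 0.09 (SE, adjusted p = 0.623 in limma). The difference between PLIN2 and PLIN3 was not tested. PLIN1, PLIN4, PLIN5 and the PNPLA2 inhibitor G0S2 were not analysed here.

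Of 14 lipolysis genes other than PNPLA2, 1 rose, none fell and the median was -0.01. PRKAR2A, a regulatory subunit of protein kinase A, the kinase that turns on lipolysis in fat cells, rose by 0.73 ± 0.18 (SE, adjusted p = 0.0278 in limma). ABHD5, the coactivator that PNPLA2 needs for full activity, read 2.04 ± 0.32 in the SSEA1+ fraction and 2.10 ± 0.09 in the SSEA1- fraction (SD, n = 5 each), without a call. The enzymes that act after PNPLA2 were dim: the diglyceride lipase LIPE differed by -0.06 and lay above background on 6 of 10 arrays, and the monoglyceride lipase MGLL differed by -0.14.

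Triglyceride and fatty acid synthesis genes changed in both directions. GPAT4, an acyltransferase for the first step of glycerolipid assembly, rose 1.47-fold, by 0.56 ± 0.07 (SE, adjusted p = 0.000803 in limma), to 4.25 ± 0.05 in the SSEA1+ fraction, against 3.70 ± 0.11 in the SSEA1- fraction (SD, n = 5 each). ELOVL1, an elongase of very long fatty acids, rose by 0.28 ± 0.07 (SE, adjusted p = 0.0358 in limma), and FABP3, a fatty acid carrier of the cytosol, fell by 0.43 ± 0.11 (SE, adjusted p = 0.043 in limma). In all 2 of 30 rose and 1 fell, or 6 and 1 with the replicate block. Of all genes 3.21% rose and 4.18% fell, or 5.65% and 8.62% with the block. The 4 that the block added, named after their values were seen, were AGPAT1 at 0.34, AGPAT3 at 0.36, SCD5 at 0.43 and FADS1 at 0.36. FABP3 did not pass after repeated quantile normalization or cyclic loess (adjusted p = 0.0569 in limma for each).

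Around ADIPOR2, no gene of 19 adiponectin receptor and AMPK genes passed. Of the 19, 7 had an unadjusted p under 0.05 in limma, a larger share than the 23.8% of all genes. Among the other lists such a p was held by 4 of 11 IL6 and STAT3 genes, but by 1 of 20 adipogenic factors and cofactors. The replicate block gave 1 that rose and 3 that fell, beside 5.65% and 8.62% of all genes. ADIPOR1, the sister receptor, read 5.83 ± 0.11 in the SSEA1+ fraction and 5.58 ± 0.12 in the SSEA1- fraction (SD, n = 5 each). It was higher in 5 of 5 pairs, by 0.25 ± 0.08 (SE, adjusted p = 0.0867 in limma), and passed with the block (adjusted p = 0.0387). PRKAG2, a regulatory subunit of AMPK, read -0.32 ± 0.09 (SE, adjusted p = 0.0555 in limma), with every SSEA1+ array below every SSEA1- array, and passed with the block (adjusted p = 0.0345). The other genes passed with the block alone, named after their values were seen, were the ceramidase ASAH1 at -0.59 and C1QTNF3, a secreted relative of adiponectin, at -0.49. APPL1, the adaptor that binds both receptors, differed by -0.07, and the hormone ADIPOQ itself was below background on 9 of 10 arrays.

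PPAR targets and fatty acid oxidation were read as lists downstream of these genes. Of 17 PPAR targets HILPDA rose and FABP3 fell, with a median of 0.03. In fatty acid oxidation 14 of 21 genes read lower, the median was -0.11, and DECR1, a mitochondrial reductase for unsaturated fatty acids, was the one that fell, by 0.33 ± 0.07 (SE, adjusted p = 0.0217 in limma). None rose. At an unadjusted p under 0.05 in limma without the block stood 6 of the 21, beside 23.8% of all genes. With the block 3 of the 21 fell, beside 8.62% of all genes. The added ones, named after their values were seen, were ACADM at -0.26 and ETFA at -0.26, an acyl-CoA dehydrogenase and its electron carrier.

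FOXO factors and their targets form a list that by textbook knowledge also takes in PNPLA2. Of its 16 measured members 3 rose and none fell, with a median of 0.09. Among all genes 3.21% rose and 4.18% fell. FOXO1, a forkhead factor restrained by insulin signalling, rose by 0.63 ± 0.10 (SE, adjusted p = 0.00445 in limma) to 4.51 ± 0.10 in the SSEA1+ fraction, against 3.88 ± 0.23 in the SSEA1- fraction (SD, n = 5 each). Its second probe set was below background at 0.09 and 0.21. FBXO32, a ubiquitin ligase component induced by FOXO factors in muscle, rose by 0.91 ± 0.14 (SE, adjusted p = 0.00353 in limma), with 0.92 on its other probe set. GABARAPL1, an autophagy protein, rose by 0.29 ± 0.07 (SE, adjusted p = 0.0214 in limma). The rise of FBXO32 was known when the list was drawn up, so neither its direction nor the count of 3 is independent evidence. The replicate block added CITED2 at 0.26, named after its value was seen.

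Among signals known to induce CEBPD, glucocorticoid targets had 1 fall in 13, a median of 0.03 and no rise. FKBP5, a co-chaperone of the glucocorticoid receptor, fell by 0.37 ± 0.10 (SE, adjusted p = 0.0482 in limma), with -0.16 on its dim other probe set. It did not pass after median centring (0.0519), repeated quantile normalization (0.0811) or cyclic loess (0.0773), with trend and robust settings (0.0509), or averaged over probe sets (0.0548), all adjusted p in limma. Of 11 IL6 and STAT3 genes the cytokine IL6 fell by 0.55 ± 0.11 (SE, adjusted p = 0.0128 in limma), to 1.77 ± 0.14 in the SSEA1+ fraction, against 2.32 ± 0.24 in the SSEA1- fraction (SD, n = 5 each), and none rose. With the block 1 rose and 2 fell, beside 5.65% and 8.62% of all genes. The added genes, named after their values were seen, were ICAM1 at 0.26 and JAK2 at -0.31. Immediate early genes, which respond within minutes to handling of cells, had no call among 15. At an unadjusted p under 0.05 in limma stood 1 of them, beside 23.8% of all genes. BTG2, a growth-restraining member, read 0.56 ± 0.21 (SE, adjusted p = 0.143 in limma) and passed with the block (adjusted p = 0.00571). It also passed without SSEA1- replicate 2, at 0.77.

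**Figure D4:**
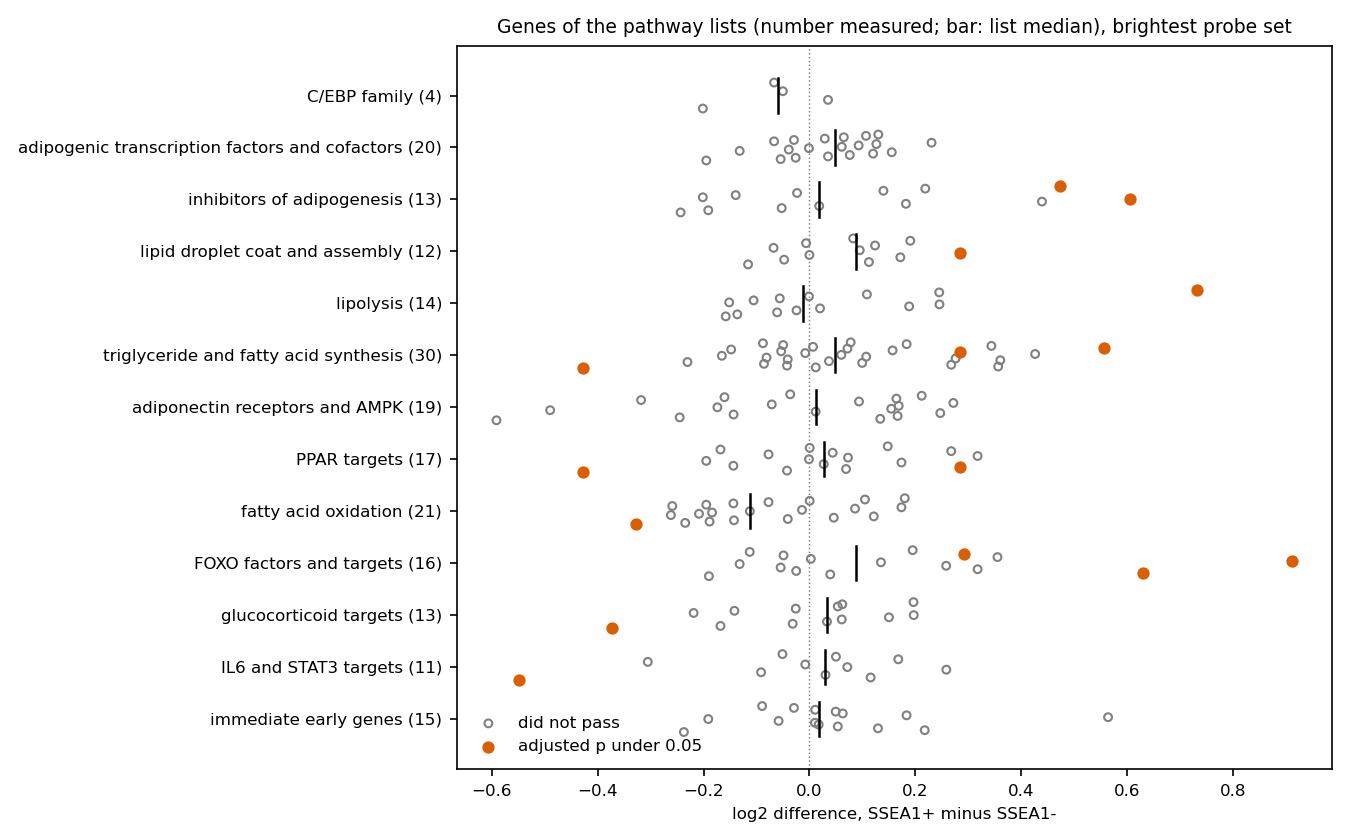
Log2 difference, SSEA1+ minus SSEA1-, of every measured gene in the 13 pathway lists, 1 point per gene and list, with a bar at the list median and filled points at an adjusted p under 0.05 in limma. Medians lie between -0.11 and 0.09. The filled points include FBXO32 at 0.91 and FOXO1 at 0.63, both of the FOXO list, and IL6 at -0.55.

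The calls of list genes differed in how far they hung on single arrays. Those of GPAT4, FBXO32 and FOXO1 held in all 15 fits that left out 1 array or 1 replicate pair. The call of IL6 ended without both arrays of replicate 1 and without both of replicate 5, at -0.57 and -0.55. NCOR1 lost its call without SSEA1+ replicate 1, 2 or 5, SSEA1- replicate 3, or both arrays of replicate 3 or 5, over a range of 0.37 to 0.55. For DECR1 it ended without SSEA1+ replicate 1 or 5, SSEA1- replicate 5, or both arrays of replicate 1, 4 or 5, over -0.39 to -0.29. For GABARAPL1 this was so without SSEA1+ replicate 1, 3 or 5, SSEA1- replicate 5, or both arrays of replicate 1, 3 or 5, over 0.27 to 0.32.

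The remaining calls held in fewer fits. PRKAR2A kept its call only without SSEA1+ replicate 2 or 4, SSEA1- replicate 2 or 3, or both arrays of replicate 2 or 4, over 0.63 to 0.90. HILPDA kept it only without SSEA1+ replicate 3 or 4, SSEA1- replicate 2 or 4, or both arrays of replicate 2, over 0.25 to 0.32. GATA3 did so without SSEA1+ replicate 2 or 3 or SSEA1- replicate 1 or 5, over 0.40 to 0.69, and FABP3 without SSEA1+ replicate 4, SSEA1- replicate 2 or 3, or both arrays of replicate 4, over -0.50 to -0.34. ELOVL1 kept its call in 3 of the 15, without SSEA1+ replicate 4 or SSEA1- replicate 2 or 4, over 0.23 to 0.31, and FKBP5 also in 3, without SSEA1+ replicate 4, SSEA1- replicate 1 or both arrays of replicate 4, over -0.45 to -0.31.

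With the poly-A level as a covariate 0 of the 185 list genes passed in limma, with 39 at an unadjusted p under 0.05, 21.1% beside 14.6% of all genes. In that fit PRKAR2A read 0.25 ± 0.30, ELOVL1 0.12 ± 0.13 and FABP3 -0.16 ± 0.20, all smaller by over 1.5 times, whereas GATA3 read 0.99 ± 0.28 and IL6 -0.98 ± 0.16 (SE). FOXO1 read 0.56 ± 0.20 and FBXO32 1.01 ± 0.28 (SE). With the block beside the covariate none passed and 23 had an unadjusted p under 0.05, 12.4% beside 11.4% of all genes. There GPAT4 read 0.32 ± 0.22, FKBP5 -0.15 ± 0.27, DECR1 -0.66 ± 0.23 and GATA3 1.51 ± 0.35 (SE).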

How the data were processed

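Log2 signals of 10 porcine arrays, as deposited, had been made by RMA, per the submitters' processing notes. Its version and background setting are not stated in those notes. Fraction and replicate number come from each sample's title. No further normalization was applied. Of 24123 probe sets, 10099 had 1 gene symbol in the platform's annotation, 198 had several and were not named; 9989 matched by identifier to a RefSeq gene table of Sscrofa11.1, and no symbol changed. A gene was read from its probe set with the highest mean. The probes' genome positions and sequences were not used here.

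The test was limma (version 3.58.1, R version 4.3.3), lmFit and then eBayes, run across every probe set, 188 controls included, with Benjamini-Hochberg adjustment and a threshold of 0.05. The 4 genes, the 22 gene lists and the tests were chosen with earlier results of these data known. Named list genes were up to 5 per pathway list with the smallest p among those past the threshold, or the smallest p where none passed, and relatives of the 4 genes. For each of the 4 genes 3 others with the most similar deviations were named too. Alternatives were the replicate block, 3 other scalings, a level filter, trend and robust settings, no controls, a mean over probe sets, leaving out arrays or pairs, and the poly-A level as a covariate. That level was the mean of 36 poly-A control probe sets minus that of 27 hybridisation control probe sets.

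Same-numbered arrays deviated together, with correlations of 0.119 to 0.580 between their deviations. The numbers were treated as pairs in the pair differences and in the replicate block, an alternative fit. The main fit left the pairing out, so SEs, adjusted p and calls given without mention of the block are unpaired. With the block 2832 probe sets were called, against 1495 without it, and the SE of PLIN2 was 0.08 against 0.14. For replicate 4 its own pair, at 0.119, correlated less than its arrays did with some of other numbers (up to 0.314), as did SSEA1- replicate 5 (0.247 against 0.314). The series text, in which each replicate gives both fractions, is the source of the pairing. The fit was also run on simulated data drawn from the means and spread of these 24123 probe sets. There 78% of 100 changes of 1.5-fold and 93% of 100 changes of 2-fold were recovered, and 14 unchanged probe sets were called. The simulated noise was independent between arrays and probe sets, without a shared replicate effect or a poly-A difference. These figures therefore give no error rate for the real arrays.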

Additional observations from a re-analysis of the deposited data

Results flagged for a closer look

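Single arrays stood apart from the other 4 of their fraction by Dixon's test at 95% in 6 of 76 fraction-wise checks of the probe sets, list genes and controls described, where chance gives about 1 in 20. ADIPOR2 on its brighter probe set was lowest in SSEA1- replicate 4, at 2.93, with the next array at 3.15, and this is the array that made its fractions overlap. PNPLA2 on its dim probe set was lowest in SSEA1+ replicate 1, at 0.40. Among list genes GPAT4 was highest in SSEA1+ replicate 3, at 4.35, and CEBPB was lowest in that same array, at 6.59, with the next at 6.86. ELOVL1 was lowest in SSEA1- replicate 5, at 4.62, and DDIT3 in SSEA1- replicate 1, at 2.69.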

How the results depend on the processing

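The replicate block, a filter on level, trend and robust settings and leaving out controls do not change a difference, only its error. The 15 leave-outs of 1 array or 1 pair cannot move it by 1 SD between replicates. Nothing is read from those fits about the size of the differences. With 3 other scalings, which could move them, the differences of all 8 probe sets of the 4 genes moved by less than 1 SD. The poly-A covariate moved 6 of them by more: CEBPD to 0.56, 0.55 and -0.10 (brightest, middle and dimmest probe set), PNPLA2 to 0.56 and 0.27, and PLIN2 to -0.91. With the replicate block beside it CEBPD read 0.47, 0.46 and -0.16, the brighter PNPLA2 probe set 0.63, and the dimmer ADIPOR2 probe set 0.45. The cause was not tested. The count of changed probe sets, 1495, was 2832 with the replicate block, 12 with the poly-A covariate and 4 with both, and 384 to 1834 in leave-outs, where fewer arrays were fitted. List genes past the threshold, 13, were 28 with the replicate block, 0 with the covariate and 0 with both (39 and 23 in limma at an unadjusted p under 0.05), and 3 to 19 in leave-outs. The count was 4 without SSEA1+ replicate 1 or 5, 8 without SSEA1+ replicate 3 or SSEA1- replicate 3, 7 without SSEA1- replicate 5, and 4, 5 and 3 without both arrays of replicates 1, 3 and 5. Leave-outs took the middle CEBPD probe set from -0.10 to 0.12, the dimmer ADIPOR2 one from -0.03 to 0.07 and the dim PNPLA2 one from 0.07 to 0.16. Signal over background limits the dim probe sets of CEBPD, PNPLA2 and ADIPOR2.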
